A study of Mus musculus with 9 samples.

Results

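The polyamine metabolism enzymes and their regulators were followed in mouse melanoma tumours through 10 genes, Odc1, Amd1, Srm, Sms, Oaz1, Oaz2, Azin1, Sat1, Paox and Smox. Their probes were found by current symbol or synonym in the name or description that the array files give. Of 23 probes that matched by text, 21 had a tumour (Cy5) signal well above background on at least 3 of 9 arrays, and these 21 stand among 26870 probes kept of 41174 on the array. In genes, they are 10 of 13282 that could be named and had a kept probe. The 2 probes not kept were well above background on no array. One matched Sat1 by a synonym but is described as weakly similar to a pig enzyme, and the other matched Smox by a synonym but is described as Smoothened, so all 10 genes are represented without them.

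The tumours were grown from 3 variants of B16-F10, a mouse melanoma cell line. The variants are named after L-histidine decarboxylase (HDC), which makes histamine from histidine. Histamine production and release are labelled as lowered in HDC-A, as unaltered in HDC-M and as raised in HDC-S. Each group consisted of 6 tumours whose RNA was combined in randomly chosen pairs, which gave 3 pools and 3 arrays a group. Every array carried a tumour pool in Cy5 and RNA of cultured HDC-M cells in Cy3, with no dye swap, so each value below is a log2 ratio of tumour over the same cultured reference. Each group is 1 variant line, so a variant and its histamine output cannot be told apart. How the variants were made, the host mice and the age of the tumours are not given in the sources used here.

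Polyamines (putrescine, spermidine and spermine) are small, positively charged molecules that bind nucleic acids and that dividing cells need. Ornithine decarboxylase (ODC) makes putrescine, and spermidine and spermine are built from it with groups donated by decarboxylated S-adenosylmethionine. Antizymes, whose translation rises with polyamine level, bind ODC, send it to the proteasome and lower polyamine uptake, while the antizyme inhibitor binds antizymes in place of ODC. Like HDC, ODC is an amino acid decarboxylase that uses pyridoxal phosphate, but its substrate and product differ.

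For the genes with the largest tumour to culture ratios and for Odc1, the 100 bases directly before the RefSeq start are shown with their GC boxes (GGGCGG or its reverse complement) in capitals, so that the 2 antizyme genes can be set beside the enzyme that their products bind. They are from RefSeq's table for GRCm38.p6, are written 5′ to 3′ on the strand of the gene, and lie at chr12:17544773-17544872 (plus strand) for Odc1, chr10:80826556-80826655 (plus strand) for Oaz1 and chr9:65676448-65676547 (plus strand) for Oaz2.
Odc1: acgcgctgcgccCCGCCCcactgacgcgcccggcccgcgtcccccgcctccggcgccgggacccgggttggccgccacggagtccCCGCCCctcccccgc
Oaz1: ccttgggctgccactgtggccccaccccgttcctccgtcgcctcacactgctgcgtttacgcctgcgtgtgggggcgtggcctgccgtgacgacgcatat
Oaz2: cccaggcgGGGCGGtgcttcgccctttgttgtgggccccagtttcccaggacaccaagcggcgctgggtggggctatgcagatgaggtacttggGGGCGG
In the 250 bases before the start, on both strands, GGGCGG matched 4 times for Odc1, 0 times for Oaz1 and 3 times for Oaz2, against a match in 32.7% of 32851 mouse promoter windows of that length. The E-box CACGTG, held by 6.02% of the windows, and TATAAA, held by 12.4%, matched in none of these 3 windows. A match is a description of the letters and not a measured site. A promoter was listed for 8 of the 10 genes.

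The Hdc probe, the check of the labels, had log2 ratios of 0.15, 0.15 and 0.42 in HDC-A, 0.60, 0.48 and 0.06 in HDC-M and 0.44, 0.33 and 0.61 in HDC-S tumours, and passed the test in no contrast between groups. The labelled order of histamine output was therefore not seen as a difference of Hdc RNA beyond the spread, and the groups are named below by their labels. The HDC-M to culture ratio of this Hdc probe was 0.38, but 1.40 in the authors' deposited table. Its size thus depends on the processing, and it is a weak check of the labels. Cy5 was well above background at 58.0% to 69.7% of probe spots per array. Log ratios of all kept probes correlated at 0.899 to 0.950 within groups and at 0.862 to 0.922 between groups. Of the defining melanocyte genes Dct, Tyr, Tyrp1, Pmel and Mitf were measured, with list means of 0.24 to 0.90 on the 9 arrays. The genes did not go together. Mitf (1.78 to 2.10) and Pmel (0.35 to 1.30) lay above the culture on every array and Tyrp1 (-0.55 to -0.02) below it. Dct (-0.25 to 0.36) took both signs, and Tyr was negative in HDC-S (-0.30 to -0.17) and positive in the other groups (0.04 to 0.32). No probe was named for Mlana or Sox10. For markers of other cell types, the mean log2 ratio on the 9 arrays was 1.39 to 2.69 over 9 macrophage genes, 2.86 to 5.58 over 5 fibroblast genes, 0.64 to 3.46 over 6 skeletal muscle genes and 0.11 to 3.67 over 6 keratinocyte genes. The lowest keratinocyte mean was that of HDC-S replicate 1, where Krt5, Krt14 and Krt15 stood at -0.18, -0.27 and -0.02. Genes without a value on an array were left out of its mean. These were Krt14 on HDC-M replicates 2 and 3, Col1a1 on HDC-A replicate 1 and Dct on HDC-M replicate 2. In these bulk samples, fewer cells of a type and less RNA per cell cannot be told apart. Replicates 1 and 2 of every group were scanned on a first day and replicate 3 of every group on a second.

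Between the tumour groups few of the polyamine probes passed the test after adjustment. With limma over all 26870 kept probes and Benjamini-Hochberg adjustment at 0.05, 0 of 21 probes passed between HDC-S and HDC-M, where 0.681% of all probes did, and 0 of 21 between HDC-A and HDC-M, where 1.44% did. Of all probes, 0.77% were called higher and 0.67% lower in HDC-A than in HDC-M. Between HDC-S and HDC-A 1 of 21 passed, an Azin1 probe that was higher in HDC-S, where 5.26% of all probes passed, 2.84% as higher and 2.42% as lower. At an unadjusted p below 0.05 the counts were 3, 3 and 8 of 21, against 14.5%, 15.5% and 19.4% of all probes. After adjustment the share called was near or below that of all probes in each contrast. Before adjustment the count between HDC-S and HDC-A stood above the share of all probes.

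The size of the differences sets the limit of these statements. HDC-S minus HDC-M ranged over the 21 probes from a log2 value of -0.23 to 0.25, with a median of 0.02 beside 0.01 for all kept probes, and their 95% intervals reached at most -0.56 and 0.46. HDC-A minus HDC-M ranged from -0.17 to 0.23, with a median of -0.05 beside 0.01, and the intervals reached at most -0.51 and 0.39. HDC-S minus HDC-A ranged from -0.21 to 0.39, with a median of 0.07 beside 0.00, and the intervals reached at most -0.39 and 0.56. The median size of HDC-S minus HDC-A was 0.17, beside 0.09 over all probes. The arrays of HDC-S and HDC-A did not overlap at 8 of the 20 probes with 3 values in both groups (40%, against 23.8% of all probes), those of HDC-S and HDC-M at 5 of 19 (26.3%, against 21.6%) and those of HDC-A and HDC-M at 6 of 19 (31.6%, against 20.1%). The 3 contrasts share groups, and several probes measure the same gene, so these counts are not separate pieces of evidence. The probes that did not overlap between HDC-A and HDC-M included all 4 Oaz2 probes.

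**Figure D1:**
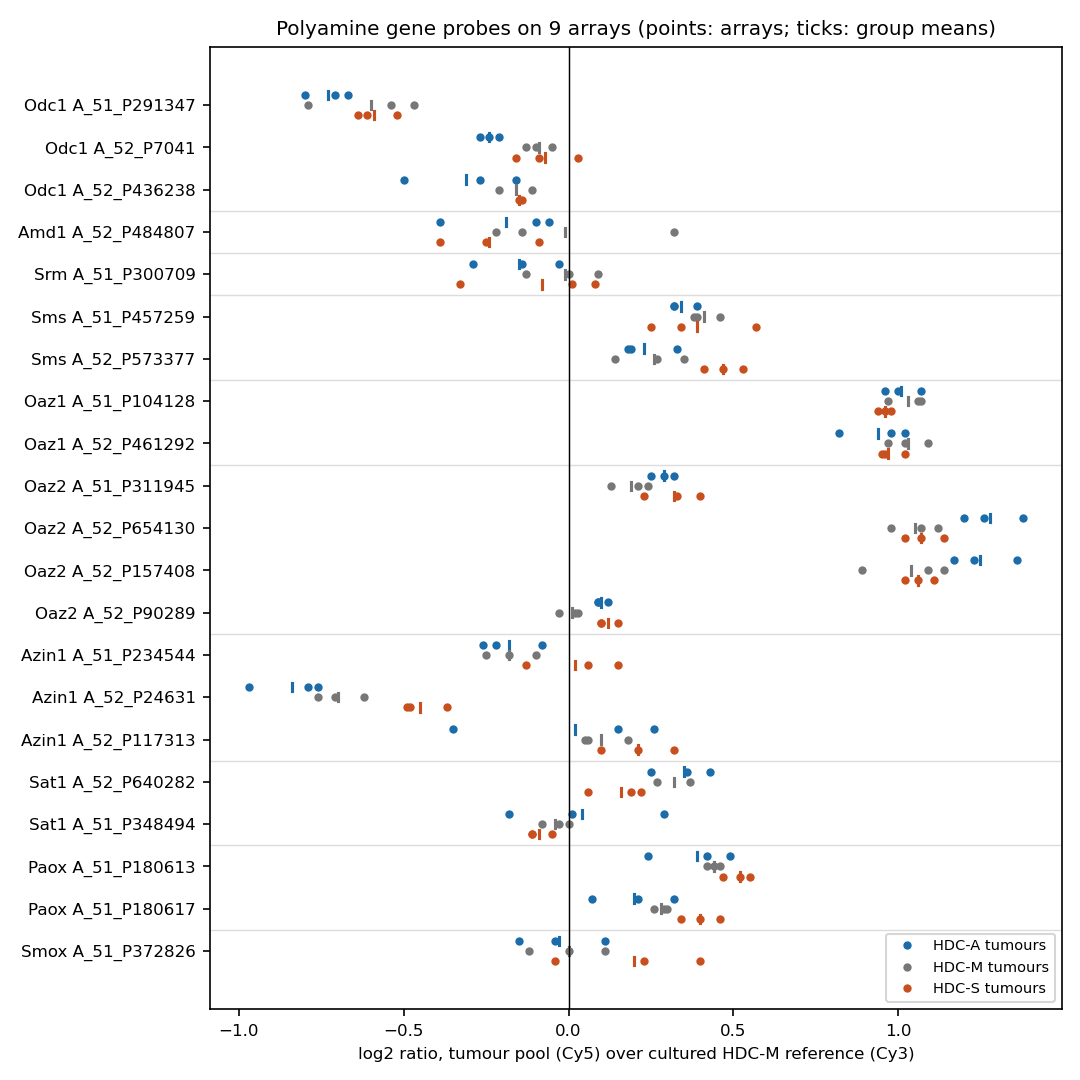
Log2 ratio of tumour pool over cultured reference for the 21 probes of the 10 polyamine genes; each point is 1 array, colours are the 3 tumour groups and short vertical ticks are group means. Both Oaz1 probes and 2 of the 4 Oaz2 probes lie between 0.82 and 1.38 in every pool, while 1 probe each of Odc1 and Azin1 lies at -0.37 or below in every pool.

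**Figure D2:**
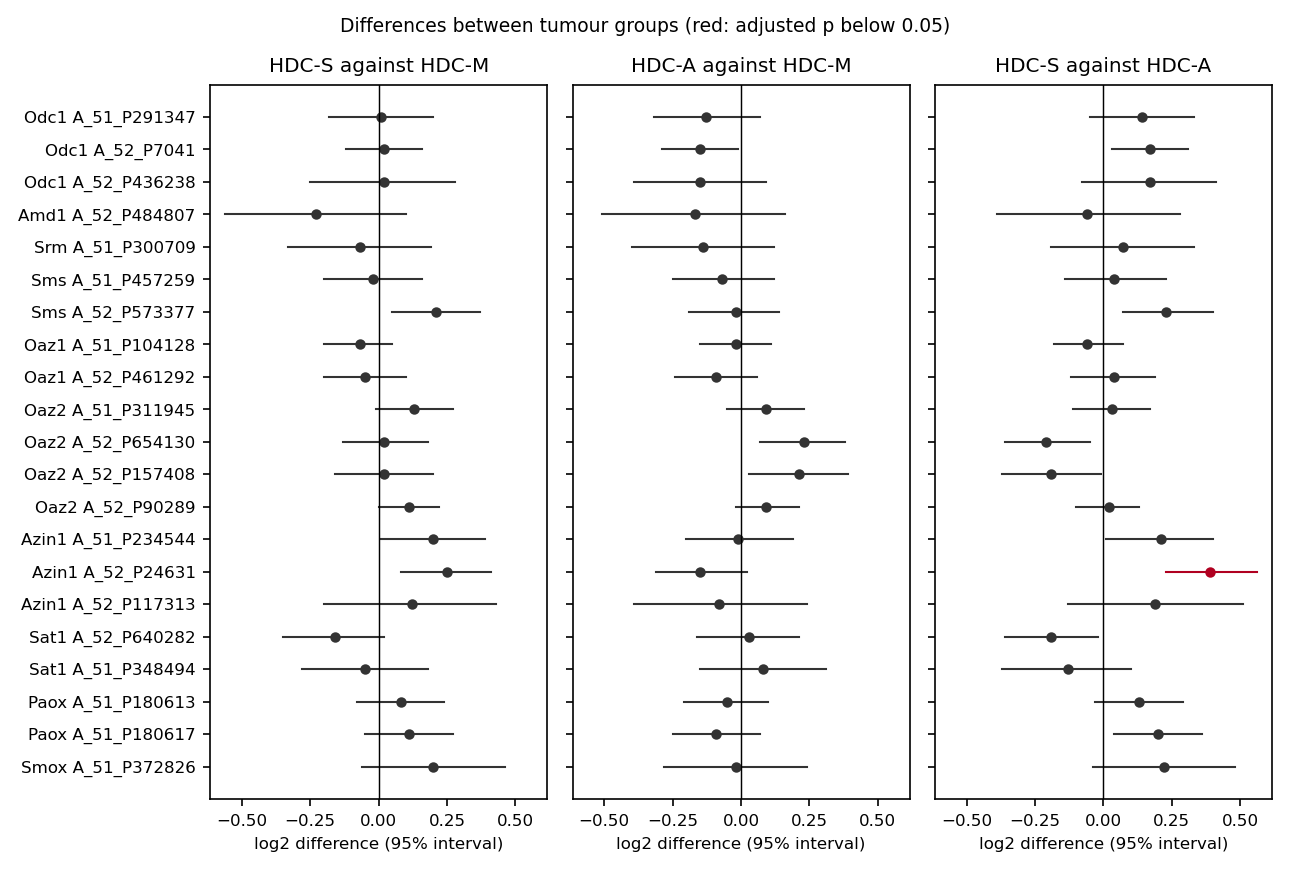
Log2 difference between tumour groups for the same 21 probes, with 95% intervals from the limma fit (3 arrays a group, fewer for 2 probes with missing spots); red marks an adjusted p below 0.05. The intervals of most probes include 0, and 1 Azin1 probe in the contrast of HDC-S with HDC-A is red.

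Odc1 encodes ornithine decarboxylase, the first and rate-limiting enzyme of the pathway. Its brightest probe (A_51_P291347) had log2 ratios of -0.67, -0.80 and -0.71 in HDC-A, -0.54, -0.47 and -0.79 in HDC-M and -0.64, -0.61 and -0.52 in HDC-S tumours, so it was below the culture on every array. The group means were -0.73 ± 0.06, -0.60 ± 0.17 and -0.59 ± 0.06 (SD, n = 3). All 3 arrays of HDC-S lay above all 3 of HDC-A at this probe, and HDC-M overlapped both.

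The second Odc1 probe (A_52_P7041) gave -0.24, -0.27 and -0.21 in HDC-A, -0.05, -0.10 and -0.13 in HDC-M and -0.16, -0.09 and 0.03 in HDC-S tumours. HDC-A lay below both other groups without overlap, by a log2 value of -0.15 against HDC-M (SE 0.06, limma adjusted p = 0.297) and with HDC-S above HDC-A by 0.17 (SE 0.06, adjusted p = 0.169), neither past the threshold. The difference from HDC-M was -0.59 with median centring, -0.09 with scaling between arrays and -0.08 between the single arrays of the second scan day. The third probe (A_52_P436238), with outlier spots left out for HDC-M replicate 2 and HDC-S replicate 3, gave -0.16, -0.50 and -0.27 in HDC-A, -0.11 and -0.21 in HDC-M and -0.14 and -0.15 in HDC-S. The 3 probes gave nearly the same differences between groups, 0.14 to 0.17 for HDC-S minus HDC-A, -0.15 to -0.13 for HDC-A minus HDC-M and 0.01 to 0.02 for HDC-S minus HDC-M, although their ratios to the culture differed.

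Amd1 encodes S-adenosylmethionine decarboxylase, which supplies the group that turns putrescine into spermidine and spermidine into spermine. Its probe gave -0.10, -0.39 and -0.06 in HDC-A, -0.22, 0.32 and -0.14 in HDC-M and -0.25, -0.39 and -0.09 in HDC-S tumours. The groups overlapped, and HDC-M replicate 2 was the highest array. The reference signal of this probe was down to 1.01 times that of the negative controls, and the mouse genome holds a near-identical copy, Amd2, from which its RNA may not be told apart. Srm encodes spermidine synthase, and its probe gave -0.03, -0.29 and -0.14 in HDC-A, 0.09, -0.13 and 0.00 in HDC-M and 0.08, -0.33 and 0.01 in HDC-S. Replicate 2 was the lowest array of each group at Srm.

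Sms encodes spermine synthase and was above the culture in every pool at both of its probes. The brighter probe (A_51_P457259) gave 0.39, 0.32 and 0.32 in HDC-A, 0.46, 0.38 and 0.39 in HDC-M and 0.34, 0.25 and 0.57 in HDC-S tumours, with groups that overlapped. The other (A_52_P573377) gave 0.33, 0.18 and 0.19, then 0.35, 0.27 and 0.14, then 0.53, 0.41 and 0.47 in the same order, and here HDC-S lay above both other groups without overlap. HDC-S exceeded HDC-M by 0.21 (SE 0.07, limma adjusted p = 0.225) and HDC-A by 0.23 (SE 0.07, adjusted p = 0.106) at this probe, against a range of -0.02 to 0.04 at the brighter probe. These 2 differences were 0.45 and 0.92 in the authors' deposited table, and the first was 0.10 with no background correction and 0.11 with plain subtraction, none of them called. The reference signal of the dimmer probe was down to 0.980 times the negative controls.

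Oaz1 encodes antizyme 1, the most widely made inhibitor of ODC. Its probe A_51_P104128 gave 1.07, 0.96 and 1.00 in HDC-A, 1.07, 1.06 and 0.97 in HDC-M and 0.96, 0.98 and 0.94 in HDC-S tumours. Its probe A_52_P461292 gave 1.02, 0.82 and 0.98, then 1.09, 1.02 and 0.97, then 0.95, 0.96 and 1.02. All 18 values lay within 0.82 to 1.09, and the group means differed by -0.09 to 0.04 at both probes. The groups overlapped in every contrast, so the high ratio to the culture was much the same in all 3 kinds of tumour.

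Oaz2 encodes antizyme 2, a second inhibitor of the same enzyme, and its 4 probes fell into sets that did not match in size. Probe A_52_P654130 gave 1.26, 1.38 and 1.20 in HDC-A, 1.07, 1.12 and 0.98 in HDC-M and 1.07, 1.14 and 1.02 in HDC-S tumours, and probe A_52_P157408 gave 1.23, 1.36 and 1.17, then 1.09, 1.14 and 0.89, then 1.06, 1.11 and 1.02. At both, the 3 HDC-A arrays lay above all 6 others. The brightest probe (A_51_P311945) gave values of 0.13 to 0.40 and the dimmest (A_52_P90289) values of -0.03 to 0.15, with HDC-A above HDC-M without overlap at both but not above HDC-S.

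The Oaz2 differences between groups did not pass the threshold at any probe. HDC-A exceeded HDC-M by 0.23 (SE 0.07, limma adjusted p = 0.142) at A_52_P654130 and by 0.21 (SE 0.08, adjusted p = 0.237) at A_52_P157408, and both turned sign when arrays were centred on their median or scaled to each other (-0.13 to -0.11). HDC-S was below HDC-A by log2 values of -0.21 (adjusted p = 0.125) and -0.19 (adjusted p = 0.232) at these probes. Their ratios correlated at r = 0.97 over the 9 arrays, which share the reference and the normalisation. All 4 probes carry the same RefSeq transcript accession in the files.

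Azin1 encodes the antizyme inhibitor, which frees ODC from antizymes, and it held the only polyamine probe that passed the test between tumour groups. Probe A_52_P24631 gave -0.76, -0.79 and -0.97 in HDC-A, -0.76, -0.71 and -0.62 in HDC-M and -0.48, -0.37 and -0.49 in HDC-S tumours. The group means were -0.84 ± 0.11, -0.70 ± 0.07 and -0.45 ± 0.07 (SD, n = 3), with HDC-S above both other groups on every array. HDC-A lay below HDC-M without overlap, although the nearest arrays of these groups both round to -0.76. HDC-S exceeded HDC-A by 0.39 (SE 0.07, 95% interval 0.23 to 0.56), a 1.31-fold difference with a limma adjusted p of 0.0184. The F-test over the 3 groups gave an adjusted p of 0.0373, where 4.65% of all probes passed, and with 1 array dropped it passed only without HDC-M replicate 3. The F-test did not pass with the replicate number as a block (adjusted p = 0.0701 in limma) or with the scan day as a block (adjusted p = 0.055). HDC-S minus HDC-M was 0.25 (SE 0.07, adjusted p = 0.164) and turned to -0.10 with median centring, which also shifted the median of all probes in that contrast to -0.12.

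The call between HDC-S and HDC-A is near its threshold. It kept its direction in 22 of 22 alternative settings, with values of 0.33 to 0.48, but passed in 13 of the 21 that allow a test. Many of these settings could not turn the direction. The filters, the blocks, the groups compared alone and leaving out an HDC-M array cannot change the value, only its test. The call missed the threshold when HDC-A replicate 3 was dropped (0.33, adjusted p = 0.0519). The same held on dropping HDC-S replicate 1 (0.41, adjusted p = 0.0501), replicate 2 (0.36, adjusted p = 0.0683) or replicate 3 (0.41, adjusted p = 0.0561). With the replicate block it was kept (0.39, adjusted p = 0.0381). On the first scan day alone it was 0.35 (adjusted p = 0.131), and between the single arrays of the second day 0.48, which has no test. The keratinocyte mean was 1.70 to 3.03 in HDC-A and 0.11 to 1.68 in HDC-S, and the skeletal muscle mean, whose ranges overlapped, 1.69 to 3.46 and 0.64 to 2.46, with 0 of 12 of these genes called. The proliferation mean was 0.83 to 1.15 in HDC-A and 0.94 to 1.08 in HDC-S, and 3 of its 7 genes were called in that contrast, Mcm5 as higher (0.40, limma adjusted p = 0.0349) and Foxm1 and Ccnb1 as lower (-0.46 and -0.43, adjusted p = 0.0166 and 0.0462). Of 5 melanocyte genes Tyr, tyrosinase, was called, as lower in HDC-S (-0.48, adjusted p = 0.0121). The part of these markers in the Azin1 result was not tested.

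The other Azin1 probes had smaller ratios. The brightest (A_51_P234544) gave -0.26, -0.08 and -0.22 in HDC-A, -0.18, -0.25 and -0.10 in HDC-M and -0.13, 0.15 and 0.06 in HDC-S tumours. Its groups overlapped through HDC-S replicate 1, and HDC-S exceeded HDC-A by 0.21 (SE 0.09, limma adjusted p = 0.220) and HDC-M by 0.20 (SE 0.09, adjusted p = 0.326; -0.14 with median centring). The dimmest (A_52_P117313) gave -0.35, 0.15 and 0.26, then 0.06, 0.18 and 0.05, then 0.21, 0.32 and 0.10. It was well above background on 7 of 9 arrays, with signals down to 0.912 times the negative controls in Cy3 and 0.811 times in Cy5. HDC-S had the highest mean at all 3 probes.

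**Figure D3:**
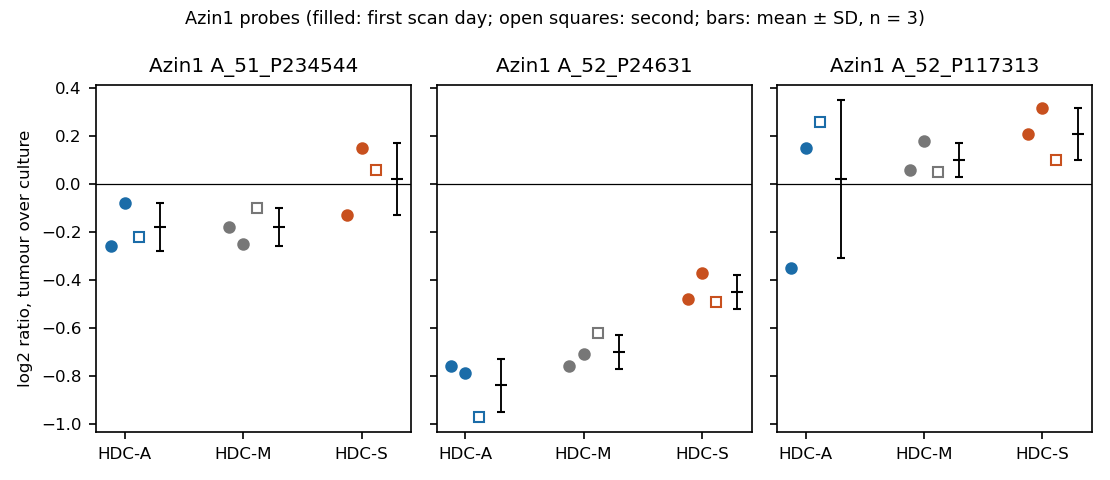
Log2 ratio of tumour over culture at the 3 Azin1 probes on each of the 9 arrays, with filled points for the first scan day, open squares for the second, and black bars for the group mean ± SD (n = 3). At A_52_P24631 the 3 HDC-S arrays lie at -0.49 to -0.37 and the 3 HDC-A arrays at -0.97 to -0.76, while the groups overlap at the other probes.

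Sat1 encodes spermidine/spermine acetyltransferase, which starts the breakdown and export of polyamines. Its brighter probe (A_52_P640282) gave 0.25, 0.43 and 0.36 in HDC-A, 0.27 and 0.37 in HDC-M, where the spot of replicate 3 was an outlier and was left out, and 0.06, 0.19 and 0.22 in HDC-S tumours. HDC-S lay below HDC-A on all arrays, by a log2 value of -0.19 (SE 0.07, limma adjusted p = 0.197), which did not pass. The other probe (A_51_P348494) gave -0.18, 0.29 and 0.01, then 0.00, -0.03 and -0.08, then -0.11, -0.05 and -0.11, with HDC-A replicate 2 standing above the rest.

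Paox encodes the oxidase that returns acetylated polyamines to spermidine and putrescine. Its probe A_51_P180613 gave 0.24, 0.49 and 0.42 in HDC-A, 0.42, 0.44 and 0.46 in HDC-M and 0.55, 0.52 and 0.47 in HDC-S tumours, and its probe A_51_P180617 gave 0.07, 0.32 and 0.21, then 0.30, 0.26 and 0.29, then 0.46, 0.40 and 0.34. The HDC-S arrays lay above all HDC-M arrays at both probes and above all HDC-A arrays at the second, where HDC-S exceeded HDC-A by 0.20 (SE 0.07, limma adjusted p = 0.151). Smox encodes spermine oxidase, which turns spermine directly into spermidine. Its probe gave -0.04, 0.11 and -0.15 in HDC-A, 0.11, 0.00 and -0.12 in HDC-M and 0.40, 0.23 and -0.04 in HDC-S, with groups that overlapped.

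Against the cultured HDC-M cells, the HDC-M tumours differed at 13 of the 21 probes (10 higher and 3 lower), where 57.9% of all kept probes differed (34.0% higher and 23.9% lower), so the share was close to that of all probes. The median over the 21 probes was 0.10, beside 0.05 over all. This comparison rests on 1 reference extract and 1 dye orientation, so it leaves out the spread of the culture and includes any dye effect. It also depends on the normalisation: centring each array on its median in place of loess moved the median of all kept probes to 0.27 and gave 17 calls among the 21 probes, 17 higher and 0 lower. Over all probes, 48.4% were then called higher and 8.65% lower. Of the 19 probes measured on all 9 arrays, 9 were above the culture on every array and 2 below it on every array, together 57.9%, beside 59.9% of all probes. In Cy3, 95.2% to 99.7% of negative controls per array were flagged well above background, so that flag does not single out a dim reference signal.

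Both antizyme genes were higher in the tumours, Oaz1 at both probes and Oaz2 at 3 of 4. Oaz1 RNA was 2.04-fold that of the culture at both probes (log2 ratio 1.03, SE 0.04 and 0.05, limma adjusted p = 8e-08 and 1.99e-07), and Oaz2 was 2.08-fold and 2.06-fold at A_52_P654130 and A_52_P157408 (adjusted p = 1.88e-07 and 4.94e-07). At the brightest Oaz2 probe the fold was 1.14 (log2 ratio 0.19, SE 0.04, adjusted p = 4.26e-03), and at the dimmest the log2 ratio was 0.01. The reference signal was down to 1.99 and 1.75 times the negative controls at A_52_P654130 and A_52_P157408. It was down to 4.14 times at the brightest Oaz2 probe and 1.43 times at the dimmest, so the large Oaz2 folds rest on dim reference signals. Over the tested settings the Oaz1 probes gave 0.99 to 1.83 and the larger Oaz2 probes 0.98 to 1.79, and each of these 4 probes passed in 21 of 21. Leaving out an HDC-A or HDC-S array or changing the filter cannot change any ratio to the culture, only its test. Sms rose by 0.41 and 0.26 at its probes (adjusted p = 2.11e-04 and 2.18e-03) and Paox by 0.44 and 0.28 (adjusted p = 4.92e-05 and 9.8e-04). The brighter Sat1 probe rose by 0.32 (adjusted p = 2.65e-03, 2 HDC-M arrays used). These 5 probes passed in 21 of 21 settings as well. Their size depended on the setting: the Sms probes gave 0.38 to 1.20 and 0.21 to 0.80, the Paox probes 0.43 to 1.21 and 0.27 to 1.04 and the Sat1 probe 0.22 to 0.72. The highest of each came from median centring, except at the dimmer Sms probe, whose reference signal reached that of the negative controls and which was highest in the authors' deposited table. The other Sat1 probe (A_51_P348494) was not called, at -0.04 (limma adjusted p = 0.665). It stood at -0.23 in the authors' deposited table and was called at 0.53 with median centring (limma adjusted p = 1.6e-03).

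The 3 lower calls turned sign with median centring and kept it in the other settings. Under loess the brightest Odc1 probe was 1.51-fold lower in the tumours (log2 ratio -0.60, SE 0.06, adjusted p = 2.52e-05), but it stood at 0.21 (adjusted p = 0.352) with median centring. The other Odc1 probes, A_52_P7041 and A_52_P436238, were not called under loess, at -0.09 and -0.16 (limma adjusted p = 0.0957 and 0.124). With median centring they were called higher, at 0.72 and 0.71 (limma adjusted p = 0.009 and 0.0355). Azin1 was lower by log2 ratios of -0.70 at A_52_P24631 (adjusted p = 3.19e-06) and -0.18 at A_51_P234544 (adjusted p = 0.0324), and these stood at 0.03 (adjusted p = 0.869) and 0.55 (adjusted p = 0.0128) with median centring. Set against the median of all probes under that centring, the 3 probes called lower under loess stood at -0.07, -0.24 and 0.28. The brightest Odc1 probe and A_52_P24631 passed in 20 of 21 settings each, and A_51_P234544 in 16, among them median centring, where it passed as higher. In the values the authors deposited, the 3 ratios were -0.54, -0.93 and -0.29. Dropping HDC-M replicate 1 (-0.17, adjusted p = 0.112) or replicate 2 (-0.14, adjusted p = 0.173) also ended the Azin1 call at A_51_P234544. In the same tumours 20 of 20 macrophage, fibroblast and keratinocyte markers were called higher than the culture. Of these, Krt14 had a value on HDC-M replicate 1 alone. Also called higher were 5 of 6 skeletal muscle markers and 7 of 7 proliferation markers (median 1.06). The part of these markers in the polyamine ratios was not tested.

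**Figure D4:**
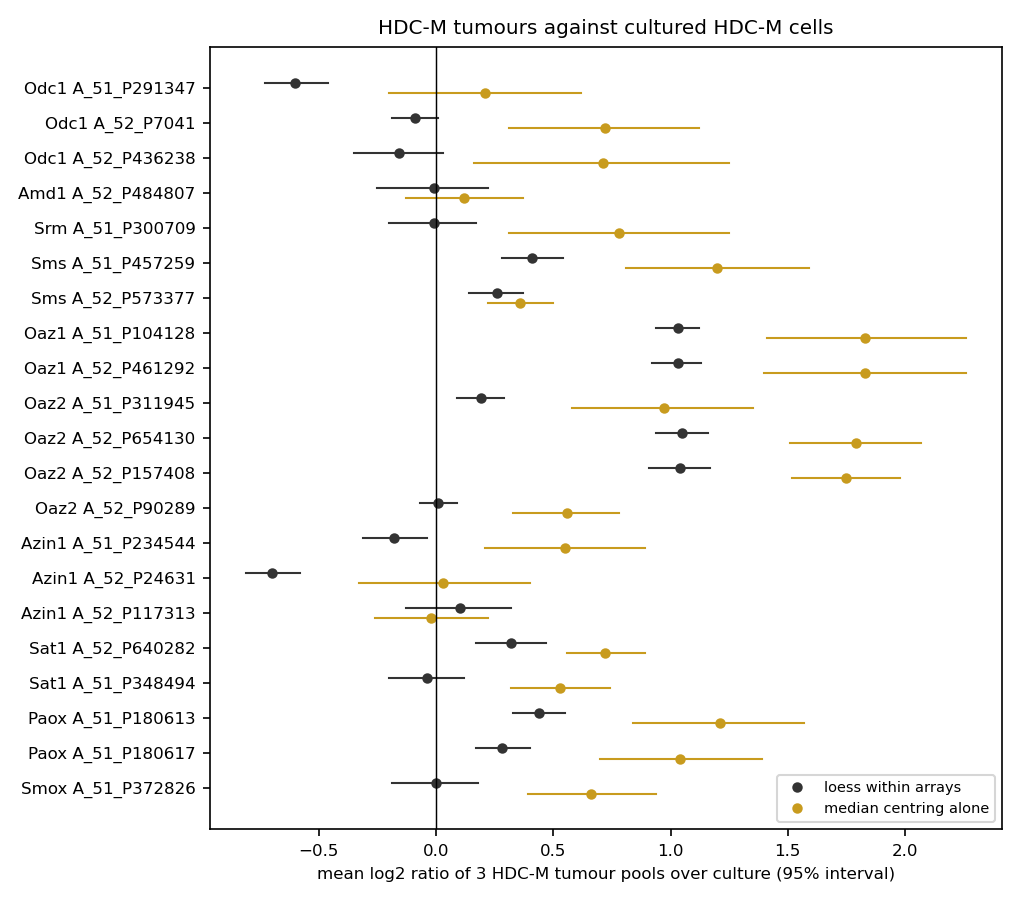
Mean log2 ratio of the HDC-M tumour pools over cultured HDC-M cells with its 95% interval for the 21 probes (3 pools, 2 for 1 Odc1 and 1 Sat1 probe), after loess (dark) and after median centring alone (yellow). The Oaz1 probes move from 1.03 to 1.83 and stay above 0, while the brightest Odc1 probe moves from -0.60 to 0.21.

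Of the 7 genes with more than 1 probe, 5 had a wider span between their probes in the ratio to the culture than in HDC-S minus HDC-A. The span of the HDC-M ratio was 1.04 over the 4 Oaz2 probes, 0.80 over the 3 Azin1 probes, 0.51 over the 3 Odc1 probes, 0.36 over the 2 Sat1 probes and 0.16 over the 2 Paox probes, and that of HDC-S minus HDC-A over the same probes 0.24, 0.20, 0.03, 0.06 and 0.07. It was the reverse for Sms (0.15 and 0.19) and Oaz1 (0.00 and 0.10). With the brightest probe standing for each gene, 0 of 10 genes passed in each contrast between groups, where 0.986% of all named genes passed between HDC-S and HDC-M, 2.03% between HDC-A and HDC-M and 6.76% between HDC-S and HDC-A. Against the culture 7 of 10 passed, near the 61.9% of all named genes. None of the polyamine spots was saturated.

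The genes that feed the pathway and use its products were counted by the brightest probe of each. Between HDC-S and HDC-M and between HDC-A and HDC-M, 0 genes passed in each of the 7 lists. Between HDC-S and HDC-A, 1 of 5 measured genes of ornithine and arginine supply (8 listed) and 1 of 7 of S-adenosylmethionine supply and methionine salvage (8 listed) passed, with list medians of 0.24 and 0.00. Asl, argininosuccinate lyase, which makes arginine, was higher in HDC-S, and Mat2a, which makes S-adenosylmethionine, was lower.

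Asl had log2 ratios of -0.16, -0.32 and 0.13 in HDC-A, 0.11, 0.15 and 0.09 in HDC-M and 0.37, 0.29 and 0.47 in HDC-S tumours. HDC-S exceeded HDC-A by 0.50 (SE 0.11, limma adjusted p = 0.0305), and the call was kept in 9 of 21 settings, with values of 0.39 to 0.62. Mat2a had 0.25, 0.24 and 0.14, then 0.08, 0.12 and 0.07, then -0.23, -0.07 and -0.05, and the 3 groups did not overlap. HDC-S was below HDC-A by a log2 value of -0.33 (SE 0.07, adjusted p = 0.0243), and the call was kept in 11 of 21 settings, with values of -0.39 to -0.27. When 1 array was left out, Asl passed in 2 of 9 cases, those of HDC-A replicate 3 and HDC-M replicate 3 (adjusted p 0.0197 to 0.110 over the 9). Mat2a passed in 4 of 9, those of HDC-A replicate 3 and of each HDC-M array (adjusted p 0.0341 to 0.0767).

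In the other lists 0 genes passed between groups, and the gene with the smallest F-test p of each is given as an example. Among 3 measured further polyamine genes (6 listed) it was Amd2, the copy of Amd1 (group means 0.28, 0.40 and 0.28 in the order used above, adjusted p = 0.674 in limma's F-test). Among 5 measured transport genes (10 listed) it was Gpc1, the heparan sulfate proteoglycan glypican 1 that takes part in polyamine uptake (means 0.83, 0.46 and 0.54, adjusted p = 0.0521 in limma's F-test). Among 4 hypusine genes it was Dhps, which transfers part of spermidine to the translation factor eIF5A (means -0.33, -0.15 and -0.08, adjusted p = 0.185 in limma's F-test). Among 4 measured decarboxylases (6 listed), Hdc included, it was Gad1, which makes GABA (means 0.01, -0.08 and -0.11, adjusted p = 0.558 in limma's F-test). Among 9 measured genes of the Myc network (10 listed), which regulates Odc1 transcription, it was Mxd4, a Max partner that opposes Myc (means 0.46, 0.00 and 0.12, adjusted p = 0.0539 in limma's F-test).

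Against the culture 24 of 37 of these genes passed, 16 as higher and 8 as lower, near the 61.9% of all named genes. The counts higher and lower were 1 and 2 of 5 for ornithine and arginine supply, 3 and 2 of 7 for S-adenosylmethionine supply and salvage, 1 and 0 of 3 for further polyamine genes, 2 and 1 of 5 for transport, 2 and 1 of 4 for hypusine, 2 and 0 of 4 for decarboxylases and 5 and 2 of 9 for the Myc network. Genes named here after their values were seen are Ass1, which makes argininosuccinate (-1.29, SE 0.05), Slc3a2, the heavy chain of amino acid exchangers (-1.09, SE 0.07), and Atp13a2, a lysosomal polyamine exporter (1.01, SE 0.07), each the mean log2 ratio of the HDC-M tumours. With median centring the counts in the same order were 3 and 1, 5 and 0, 1 and 0, 2 and 0, 4 and 0, 2 and 1, and 6 and 1, where 48.4% of all probes were higher and 8.65% lower. Ass1 then stood at -0.61, Slc3a2 at -0.29, no longer called, and Atp13a2 at 1.82. Arg1, also named after its values were seen, encodes arginase 1, which makes ornithine and is also made by macrophages. It had means of 0.77 ± 0.19, 0.65 ± 0.26 and 1.40 ± 0.56 (SD, n = 3) in the same order and did not pass between groups.

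The genes whose log2 ratios followed those of the brightest Odc1 probe most closely over the 9 arrays, among 12528 named genes, were Sars2 (r = 0.930), Rtel1 (r = 0.926) and Suv39h2 (r = 0.926). For the brighter Sat1 probe, over 8 arrays, they were Cd109 (r = 0.960), Fap (r = 0.939) and Rnf115 (r = 0.938). These are the highest of many correlations over few arrays that share 1 reference and are given as a description.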

How the data were processed

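Agilent Feature Extraction 8.5.1.1 wrote the scanner output, per the file headers, and the deposited intensity values are each spot's mean signal and median local background in either dye. Other columns used, per the file headers, mark spot type, outliers, saturation and signal well above background. The authors' deposited value table is in log10 units and equalled the scanner files' log10 ratio of Cy5 over Cy3 at all 43790 spots (within 1e-06), so its scale and direction are known and no further centring was found.

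Signals were corrected by normexp (offset 50) and normalised by loess within each array in limma 3.58.1 (R 4.3.3), with control and outlier spots at weight 0. Outliers were dropped, repeated spots were averaged by probe, and probes with Cy5 well above background on at least 3 of 9 arrays were kept. All 9 arrays entered 1 limma fit (lmFit, eBayes) with no block. Contrasts, an F-test and the HDC-M mean against 0 were tested with Benjamini-Hochberg adjustment over all kept probes at 0.05, and intervals are 95%. The number of arrays, 3 a group, limits the precision. How often differences as small as those of the 21 polyamine probes between HDC-S and HDC-A (log2 values of -0.21 to 0.39) would be called was not tested.

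Probes were named through RefSeq accessions (22072 probes), another accession of the probe (142) or the file's names (1555), and 17405 had none. The brightest kept probe stood for a gene in list counts. Text names, beside all members, listed genes that passed between groups or had their list's smallest F-test p. Ass1, Slc3a2, Atp13a2, Arg1 and single marker genes were picked with their values in view. The members and lists were chosen with earlier results of these data known. Alternatives were other background corrections, centring, scaling and filters, the authors' table, kept outlier spots, blocks by replicate number and scan day, scan days alone, groups alone, and each array left out. The probes' positions and sequences were not used here.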

Additional observations from a re-analysis of the deposited data

How the results depend on the processing

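Between HDC-S and HDC-M and between HDC-A and HDC-M the count of polyamine probes called was 0 in every setting tried. Of all probes 0.0149% to 1.17% and 0.00744% to 2.13% passed in these contrasts over the alternative settings. Between HDC-S and HDC-A it went from 1 to 0 with median centring, with scaling between arrays, with the authors' value table and with only the first scan day, and was 0 to 1 with 1 array left out. For the F-test it went from 1 to 0 in those 4 settings, with the replicate block and with the scan day block, and was 0 to 1 with 1 array left out. With 1 array left out, 1.69% to 5.17% of all probes passed between HDC-S and HDC-A and 1.27% to 4.19% in the F-test. Against the culture the count of polyamine probes was 12 to 17, beside 13, where 43.4% to 64.5% of all probes passed. In the 4 settings that ended the Azin1 call at A_52_P24631 the HDC-S minus HDC-A value was 0.39, 0.33, 0.46 and 0.35 (adjusted p = 1, 0.255, 0.0561 and 0.131), and the count over all probes was 4, 158, 392 and 9, beside 1412. The cause was not tested.

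With median centring, HDC-S minus HDC-M turned to -0.14 and -0.10 at the Azin1 probes A_51_P234544 and A_52_P24631. HDC-A minus HDC-M turned to -0.12 and -0.11 at the Oaz2 probes A_52_P654130 and A_52_P157408, and to -0.13 and -0.12 with scaling. The HDC-M to culture ratio turned to 0.21 at the Odc1 probe A_51_P291347 and to 0.55 and 0.03 at the Azin1 probes A_51_P234544 and A_52_P24631. Median centring moved the median of all probes to -0.12 between HDC-S and HDC-M, to -0.11 between HDC-A and HDC-M and to 0.27 against the culture. Among 1248 values of the differences whose unadjusted limma p was not below 0.05, 87 turned sign, all with a main size of at most 0.20. Over all differences followed, median centring turned 12 of 21 signs between HDC-S and HDC-M and 5 of 21 between HDC-A and HDC-M. It turned 10 of 21 against the culture and 0 of 23 between HDC-S and HDC-A, Asl and Mat2a included. The Azin1 ratio to culture at A_51_P234544 lost its call with plain background subtraction, the scan day block and only the first scan day (-0.14, -0.17 and -0.22).

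The labels do not tie pools of different groups to each other by replicate number. Deviations of same-numbered arrays from their group means correlated at -0.187 to 0.548, over 0.1 in 4 of 9 pairs, but in 3 of 3 pairs of HDC-A with HDC-S (0.110, 0.548 and 0.134). With the replicate block the counts were 0, 0 and 1 in the contrasts HDC-S against HDC-M, HDC-A against HDC-M and HDC-S against HDC-A, and 13 against the culture. Of all probes 0.261%, 0.696%, 4.18% and 57.7% passed in the same order. The alternatives for Asl and Mat2a were chosen after seeing the data. Signal over background limits the Amd1 probe, the dimmer Sms probe and the dimmest Azin1 probe, whose signals reach those of the negative controls.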
